A study of Mus musculus with 16 samples.

Results

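Interleukin receptors are the cell surface chains through which endothelial cells receive cytokine signals, and the genes described here are Il1r1, Il1rl1, Il4ra, Il13ra1, Il13ra2, Il6st and Il10rb together with Ebi3, a secreted cytokine subunit. They were chosen by gene family with the signals of these arrays already known, so their levels are given as descriptions with standard errors and no p value, and nothing is read from their counts past a threshold. All probe sets annotated to the 8 genes were taken, which gave 10 probe sets of 7 genes, all on chip A, among 24833 probe sets of 13674 genes. Il1rl1, the receptor for IL-33, is not analysed here, because none of the probe sets used carried its name.

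The cells were mouse endothelial cells grown from embryonic stem cells. Per the labels their VE-cadherin gene (VEC, Cdh5) was homozygous null, and VEC-positive and VEC-null cells were compared, each confluent and sparse, which gave 4 conditions. How VEC was restored, and whether each line is 1 clone, the labels do not say. All cells had been starved for 36 h in medium with albumin before lysis, and 15 µg of total RNA was the starting amount. VE-cadherin is the adhesive cadherin of endothelial junctions and clusters there when cells touch. Each condition was hybridised to 2 copies of each of the chips MG_U74Av2 (chip A) and MG_U74Bv2 (chip B), so 8 arrays of chip A carry the values below. Both copies came from 1 cRNA sample, so every standard error and p value here measures the spread between hybridisations and not between cultures.

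Signals are MAS5 signals, linear intensities that the authors scaled to a target of 500 on each array. They have no detection calls, and signals of different probe sets are not compared with each other. Median signals of the arrays lay between 139.8 and 174.1 on chip A and between 223.2 and 251 on chip B, and the copies of a condition correlated at r = 0.951 to 0.989 across probe sets. Cdh5 itself had signals of 2607.2 and 2525.8 in confluent and 1464.4 and 1333.7 in sparse VEC-positive cells, against 2707.2 and 2508.7 in confluent and 1255.4 and 1281.6 in sparse VEC-null cells. The Cdh5 signal therefore did not separate the lines labelled VEC-positive and VEC-null. Whether this probe set lies in the deleted stretch of the gene the sources do not say, so it is no check of the labels, and every direction between the lines below rests on the labels alone. All 13 endothelial markers on the chips passed the filter on dim probe sets. Cldn5 and Vwf did so only through confluent VEC-positive cells. They averaged 5115 and 2516 there, against 11.9 to 50.5 and 14.5 to 42.1 in the other conditions. Signals of Ptprc, the common leukocyte antigen, averaged 9.1 to 14.05 in the 4 conditions.

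IL-1 receptor type 1, encoded by Il1r1, binds IL-1 and recruits an accessory chain, and the complex activates NF-kB, which in endothelium drives adhesion molecules and chemokines. The IL-4 receptor alpha chain (Il4ra) pairs with the common gamma chain or with Il13ra1 and signals mainly through STAT6, while the product of Il13ra2 binds IL-13 tightly and is known mostly as a decoy. The shared chain gp130 (Il6st) serves IL-6, LIF, oncostatin M, IL-11 and IL-27 through JAK kinases and STAT3, the product of Il10rb is the shared second chain of the receptors for IL-10, IL-22 and interferon lambda, and EBI3 pairs with IL-27 p28 or IL-12 p35 to form the heterodimers IL-27 and IL-35.

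The genes fell into a pair of patterns. Il1r1, Il13ra2 and Ebi3 had their highest signals in confluent VEC-positive cells and were low in each of the other 3 conditions. Il4ra, Il6st and Il10rb had higher signals in confluent than in sparse cells of both lines. The 7 probe sets that passed the filter on dim values (a mean in at least 1 condition above the 50th percentile, or 159) are 1 each of Il1r1, Il13ra2, Ebi3, Il4ra and Il10rb and both of Il6st. Those of Il1r1, Il13ra2 and Ebi3 passed the filter only through confluent VEC-positive cells, so counts over them carry no support of their own.

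**Figure D1:**
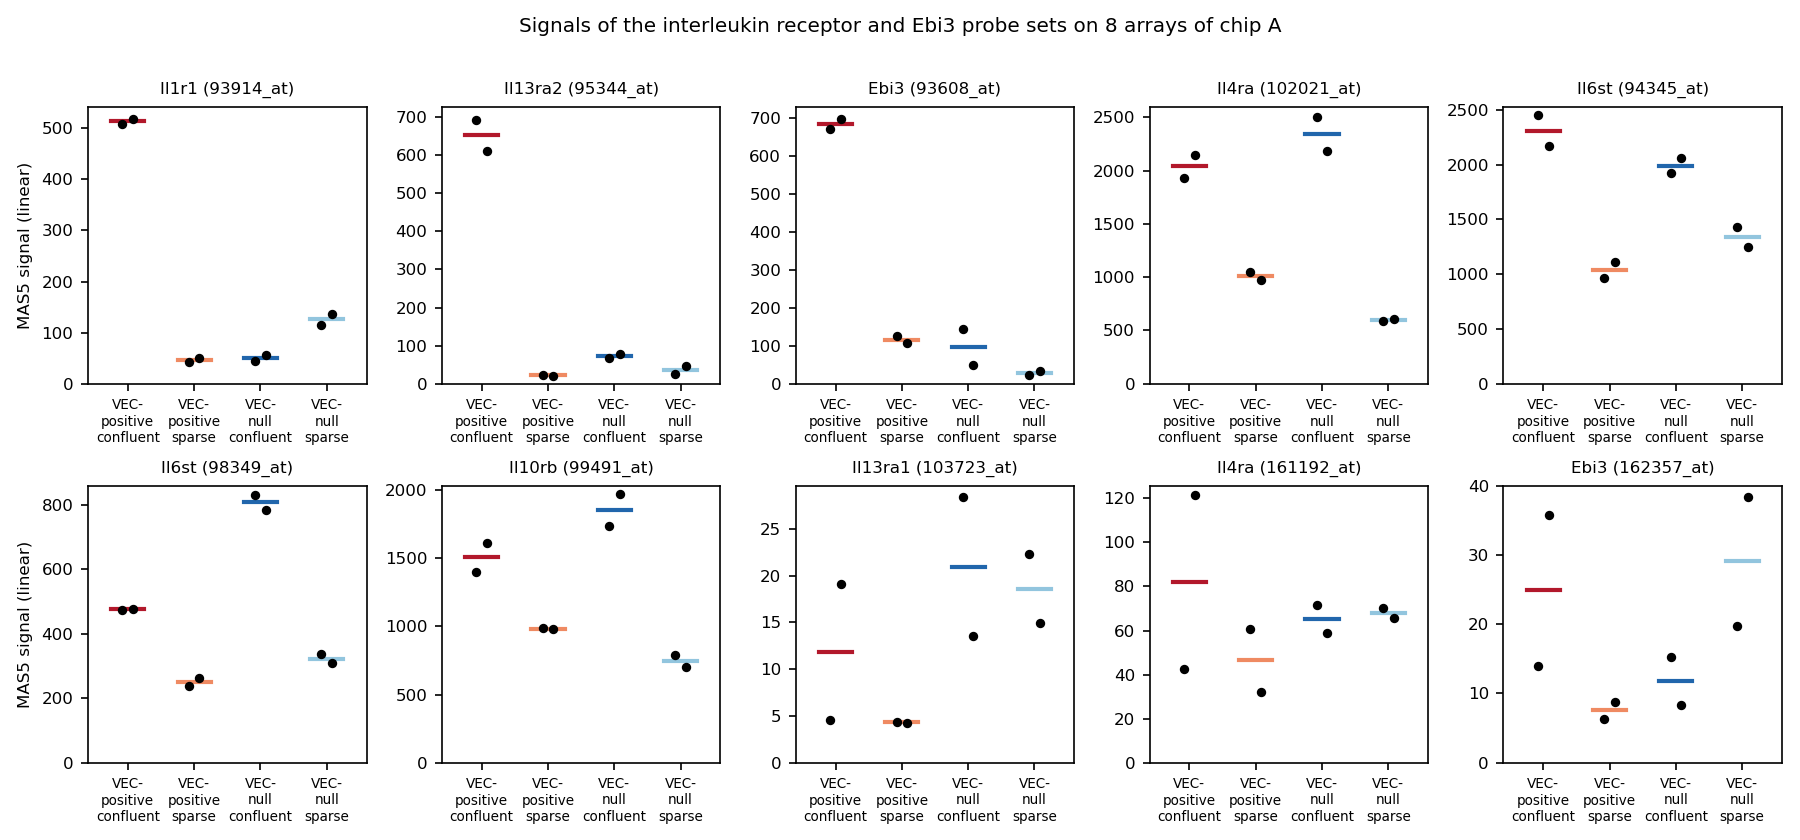
MAS5 signal (linear axis from 0, a separate scale in each panel) of the 10 probe sets on the 8 arrays of chip A; points are the copies and lines their mean, with the conditions from left to right confluent and sparse VEC-positive and confluent and sparse VEC-null. Il1r1, Il13ra2 and Ebi3 (93608_at) lie above 500 in confluent VEC-positive cells only, whereas Il4ra (102021_at), both Il6st probe sets and Il10rb are higher in confluent than in sparse cells of each line.

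Il1r1 (probe set 93914_at, chromosome 1) had signals of 507.8 and 518 in confluent and 42.9 and 49.7 in sparse VEC-positive cells, against 45.2 and 56.6 in confluent and 115.4 and 136.8 in sparse VEC-null cells. Confluent VEC-positive cells stood far above the rest, sparse VEC-null cells came next, and the remaining 2 conditions overlapped. On the array, the signal ranked at percentiles 70.4 and 70.6 in confluent VEC-positive cells and between 27.6 and 48.2 elsewhere. The mean signal of confluent VEC-positive cells was 10.1 times that of confluent VEC-null cells and 11.1 times that of sparse VEC-positive cells. On the log2(signal + 50) scale, which understates changes of dim genes, these differences were 2.48 ± 0.17 and 2.55 ± 0.17 (SE of the fit, n = 2 copies each). Among sparse cells the order turned, with a difference of -0.87 ± 0.17 between VEC-positive and VEC-null cells. Within VEC-null cells the confluent minus sparse difference was -0.8 ± 0.17, so the density response of Il1r1 ran in opposite directions in the lines, and the responses differed by 3.35 ± 0.24. In bulk RNA of this kind, fewer cells expressing a gene and less RNA per cell cannot be told apart.

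Il13ra2 (95344_at, chromosome X) had signals of 693.5 and 609.9 in confluent and 22.8 and 21.3 in sparse VEC-positive cells, against 68.2 and 78.3 in confluent and 26.8 and 45.7 in sparse VEC-null cells. The order was confluent VEC-positive, confluent VEC-null, sparse VEC-null and sparse VEC-positive, with no overlap between neighbours, although the copies of both sparse conditions came within 4 units of each other. The mean in confluent VEC-positive cells was 8.9 times that in confluent VEC-null cells and 29.6 times that in sparse VEC-positive cells, ratios whose denominators are dim signals. The log2 differences were 2.51 ± 0.19 between the lines when confluent and -0.25 ± 0.19 when sparse. Confluent minus sparse, they were 3.28 ± 0.19 in VEC-positive and 0.52 ± 0.19 in VEC-null cells, a difference between the lines of 2.76 ± 0.26. The decoy receptor thus had a density response of the same sign in each line and of unequal size.

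Ebi3 (93608_at, chromosome 17) had signals of 670.7 and 694.8 in confluent and 124.9 and 107.9 in sparse VEC-positive cells, against 145 and 49.3 in confluent and 22.1 and 34.2 in sparse VEC-null cells. Confluent VEC-positive cells were highest and sparse VEC-null cells lowest, while sparse VEC-positive and confluent VEC-null cells overlapped. The log2 difference between the lines was 2.4 ± 0.28 when confluent and 1.09 ± 0.28 when sparse, so Ebi3 was the only 1 of the 3 genes that was higher in VEC-positive cells at both densities. Confluent minus sparse, the difference was 2.14 ± 0.28 in VEC-positive and 0.84 ± 0.28 in VEC-null cells. The copies of confluent VEC-null cells lay far apart: the density difference of this line was 0.35 without its first copy and 1.32 without its second, and the difference between the lines' responses moved between 1.79 and 0.82. The other Ebi3 probe set, 162357_at, did not pass the filter and stayed between 6.3 and 38.4 on all 8 arrays.

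Values of other measures moved with the same arrays. The 3′ Gapdh probe set of chip A had 12919.5 and 12787.6 in confluent VEC-positive cells against 16729.2 to 21421.2 in the other 3 conditions, and its part in the results was not tested. Summed signals of 12 fibroblast and smooth muscle markers were 3430.1 to 3887.7 in confluent and 10274.6 to 12059.1 in sparse VEC-positive cells, against 2721.2 to 2792 in confluent and 2859.1 to 2991.8 in sparse VEC-null cells. Most of the sum in sparse VEC-positive cells was S100a4, a calcium-binding protein that other cells express too, with a mean of 9477 ± 1100 (SD, n = 2 copies). With S100a4 left out after its values were seen, the sums of the other 11 genes were 1754.3 to 2127.3 in confluent and 1566.4 to 1814.2 in sparse VEC-positive cells, against 1938.6 to 2098.4 in confluent and 1715.7 to 1842.8 in sparse VEC-null cells. Single markers among these genes still differed, in opposite directions. Pdgfrb averaged 327.6 in confluent VEC-null cells against 9.5 to 13 in the other conditions. Acta2 averaged 5.55 in confluent VEC-positive cells against 122.6 in confluent VEC-null cells, and Dcn 586.4 against 231.2. Similar sums therefore do not mean that each marker was alike. Summed macrophage and myeloid markers (11 genes) were 1013.3 to 1229.7 in confluent and 1091.3 to 1232.1 in sparse VEC-positive cells, against 1565.5 to 1935.3 in confluent and 903.3 to 939.8 in sparse VEC-null cells. Without Cd68, likewise left out after its values were seen, the sums were 724.9 to 948.6 in confluent and 749.5 to 868.2 in sparse VEC-positive cells, against 819 to 861.8 in confluent and 645 to 651.6 in sparse VEC-null cells. Csf1r, the CSF1 receptor, averaged 351 in confluent VEC-positive cells against 232.2 to 255 in the other 3 conditions. Its copies in confluent VEC-null cells lay apart, at 317.5 and 154.2. The other Csf1r probe set overlapped between the confluent lines, with 195.7 and 175.5 against 157.5 and 180.4. Cd68 and Cd14 went the other way, averaging 284.8 and 249 in confluent VEC-positive cells against 910 and 321.8 in confluent VEC-null cells. Sums of 8 mast cell and basophil markers were 624.3 to 787.2 in confluent and 356.2 to 359.2 in sparse VEC-positive cells, against 1373.7 to 1505.3 in confluent and 459 to 564.4 in sparse VEC-null cells. Of these markers Kit averaged 700.5 in confluent VEC-null cells against 8.6 to 72.6 in the other 3 conditions. Hdc followed density instead, averaging 233 in confluent and 11.05 in sparse VEC-positive cells, against 304.1 in confluent and 63.5 in sparse VEC-null cells. Tpsb2 averaged 181.8 to 284.4 across the conditions. Cpa3, Cma1, Mcpt4, Fcer1a and Ms4a2 did not pass the filter. The sum of 8 lymphocyte markers was 406.9 to 490.4 in confluent VEC-positive cells, against 570.7 to 755.9 in the other 3 conditions. Without Cd4, left out after its values were seen, the sums of the confluent lines overlapped, 259.1 to 327.1 in VEC-positive and 316.8 to 390.6 in VEC-null cells. Gata3 averaged 65.15 in confluent and 282 in sparse VEC-positive cells, against 43.65 in confluent and 233 in sparse VEC-null cells. The part of cells of these types in the results was not tested. Median log2 differences between the lines over the genes of the chromosomes that carry the members (1, 7, 13, 16, 17 and X) lay between -0.03 and 0.02 in confluent and between -0.11 and -0.02 in sparse cells.

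Promoter windows are shown for Il1r1, Il13ra2 and Ebi3, the 3 genes that were high together in confluent VEC-positive cells, so that their sequence can be set beside the signals. RefSeq's table for mouse assembly GRCm38.p6 gave windows of 250 bases before to 50 bases after each annotated start for 7 of the 8 genes. Il1r1 has a pair of annotated starts, with windows at chr1:40224830-40225129 and chr1:40266336-40266635 on the plus strand. The Il13ra2 window is chrX:147429143-147429442 on the minus strand and that of Ebi3 chr17:55952373-55952672 on the plus strand. They were searched on both strands for GGGNNNNNCC (bound by NF-kB), TTCNNNGAA (STAT factors), TTCNNNNGAA (STAT6), TGANTCA (AP-1) and TATAAA (the TATA box), and capitals mark the matches.
Il1r1 upstream start: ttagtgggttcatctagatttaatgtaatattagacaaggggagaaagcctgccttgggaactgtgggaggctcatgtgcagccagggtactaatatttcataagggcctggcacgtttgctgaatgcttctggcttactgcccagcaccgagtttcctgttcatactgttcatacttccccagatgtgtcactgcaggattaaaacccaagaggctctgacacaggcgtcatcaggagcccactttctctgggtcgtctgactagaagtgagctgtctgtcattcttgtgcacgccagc
Il1r1 downstream start: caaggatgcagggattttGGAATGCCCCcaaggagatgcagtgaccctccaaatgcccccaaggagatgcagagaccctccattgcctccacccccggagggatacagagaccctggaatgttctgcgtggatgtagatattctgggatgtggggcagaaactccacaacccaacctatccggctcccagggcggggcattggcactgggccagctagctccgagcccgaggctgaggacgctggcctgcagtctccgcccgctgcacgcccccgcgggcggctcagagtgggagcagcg
Il13ra2: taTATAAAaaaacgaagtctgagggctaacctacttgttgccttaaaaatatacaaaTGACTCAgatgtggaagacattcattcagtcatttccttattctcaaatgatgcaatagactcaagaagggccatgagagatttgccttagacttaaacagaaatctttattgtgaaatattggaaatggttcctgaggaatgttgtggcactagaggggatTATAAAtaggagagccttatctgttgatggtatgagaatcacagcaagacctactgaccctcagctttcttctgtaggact
Ebi3: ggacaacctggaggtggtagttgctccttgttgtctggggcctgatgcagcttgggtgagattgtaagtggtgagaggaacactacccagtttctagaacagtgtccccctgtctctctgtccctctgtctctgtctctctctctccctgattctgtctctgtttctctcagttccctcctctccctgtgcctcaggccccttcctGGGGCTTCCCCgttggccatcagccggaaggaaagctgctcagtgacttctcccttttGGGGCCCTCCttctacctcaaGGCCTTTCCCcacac

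The Ebi3 window held 4 matches to the NF-kB letters, the first bases of which lay at -44, -43, 15 and 36 from the start, and those at -44 and -43 overlap. The downstream Il1r1 window held 1 such match, at -232, and the upstream window none of the motifs. Il13ra2 had an AP-1 match at -193 and TATAAA at -248 and -31, and no NF-kB match. Neither STAT motif was found in the windows of the 3 genes. Of 32841 mouse promoter windows of this length, 50.8% held the NF-kB letters, 8.3% and 6.95% those of STAT and STAT6, 7.81% those of AP-1 and 13.6% TATAAA, so a match is a description of the letters and not a binding site. The windows had a G and C content of 49.3% and 63.3% (Il1r1, upstream and downstream), 37.7% (Il13ra2) and 56.3% (Ebi3).

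Il4ra (102021_at, chromosome 7) had signals of 1934 and 2145.6 in confluent and 1051 and 971.8 in sparse VEC-positive cells, against 2502.7 and 2187.7 in confluent and 586.4 and 603.5 in sparse VEC-null cells. The order was confluent VEC-null, confluent VEC-positive, sparse VEC-positive and sparse VEC-null, with no overlap, and the first and second of these came close. Confluent minus sparse, the log2 difference was 0.98 ± 0.1 in VEC-positive and 1.89 ± 0.1 in VEC-null cells, means of 2.02 and 3.94 times the sparse signal. The responses differed by -0.91 ± 0.15, so the IL-4 receptor chain had the larger density difference in VEC-null cells. Between the lines the difference was -0.2 ± 0.1 when confluent and 0.72 ± 0.1 when sparse. The second Il4ra probe set, 161192_at, did not pass the filter, with signals of 32.1 to 121.3 that overlapped in 3 of the 4 comparisons. Il13ra1 (103723_at), the partner of Il4ra in the receptor for IL-13, was dim throughout, between 4.2 and 28.4.

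Il6st was read by a brighter probe set (94345_at) and a dimmer one (98349_at), both on chromosome 13. They agreed on the sign of the density difference in each line and disagreed on VEC in confluent cells. With 94345_at the signals were 2455.3 and 2169.1 in confluent and 967.3 and 1114.4 in sparse VEC-positive cells, against 1922.9 and 2058.5 in confluent and 1431.1 and 1247.9 in sparse VEC-null cells. With 98349_at they were 475 and 477.5 in confluent and 237.2 and 264.6 in sparse VEC-positive cells, against 830.8 and 785.4 in confluent and 337.6 and 308.1 in sparse VEC-null cells. Each probe set placed every confluent copy above every sparse copy, and each was lowest in sparse VEC-positive cells. Confluent minus sparse, the log2 differences in VEC-positive and in VEC-null cells were 1.12 ± 0.11 and 0.56 ± 0.11 for 94345_at and 0.81 ± 0.12 and 1.2 ± 0.12 for 98349_at. Between the lines when confluent they were 0.21 ± 0.11 and -0.7 ± 0.12, of opposite sign, and when sparse -0.35 ± 0.11 and -0.31 ± 0.12. A direction for gp130 between confluent lines therefore cannot be given.

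Il10rb (99491_at, chromosome 16) had signals of 1401.3 and 1608.4 in confluent and 984.2 and 983 in sparse VEC-positive cells, against 1736.7 and 1968.6 in confluent and 792.8 and 699.8 in sparse VEC-null cells. The order was that of Il4ra, with no overlap between neighbours. Confluent minus sparse, the log2 difference was 0.59 ± 0.11 in VEC-positive and 1.26 ± 0.11 in VEC-null cells, and the responses differed by -0.67 ± 0.16. Between the lines it was -0.29 ± 0.11 when confluent and 0.38 ± 0.11 when sparse. Summed signals of 12 endothelial markers moved with density as Il4ra, Il6st and Il10rb did: they were 47804.8 to 48914.7 in confluent and 23459.6 to 26045.7 in sparse VEC-positive cells, against 47706.4 to 48361.9 in confluent and 14696.5 to 14774.7 in sparse VEC-null cells. The part of this shift in the receptor signals was not tested.

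**Figure D2:**
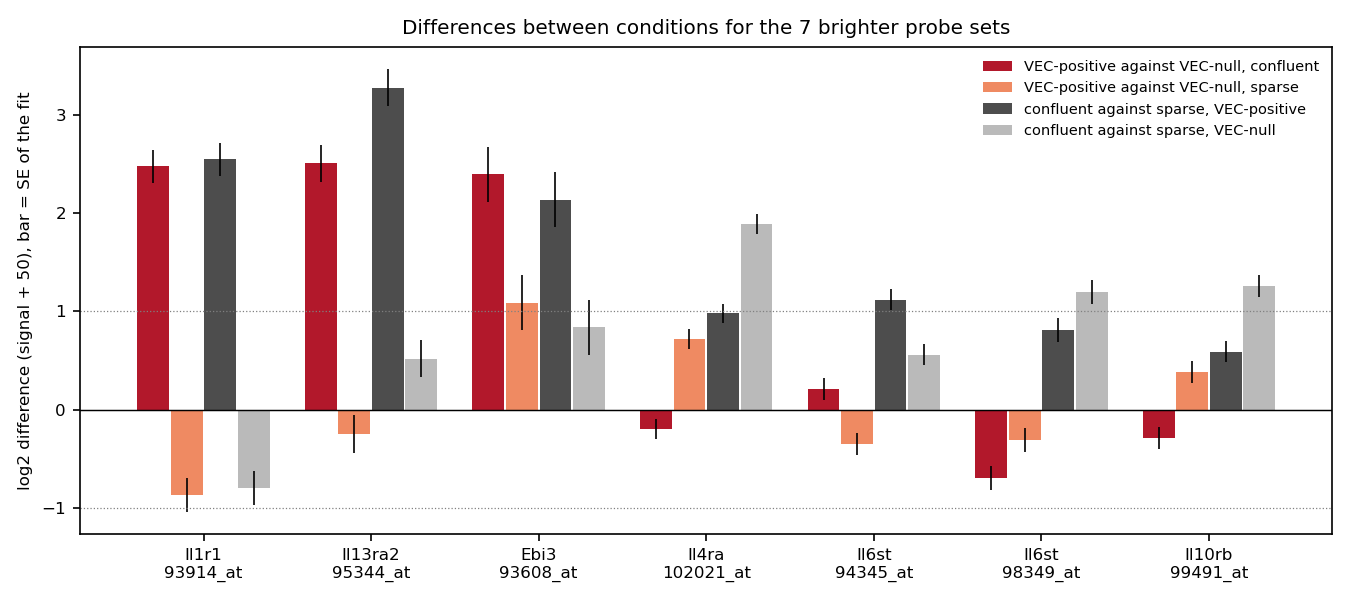
Log2 difference of signal + 50 (vertical axis, bars from 0, error bars the SE of the fit, 2 copies a condition) of the 7 probe sets that passed the filter, in 4 comparisons; dotted lines mark a difference of 1 in either direction. Il1r1, Il13ra2 and Ebi3 reach 2.14 to 3.28 in the comparisons that involve confluent VEC-positive cells, and Il1r1 is below 0 in the other 2.

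With a threshold of an adjusted p of 0.05 and a log2 change of 1, 3 of the 7 probe sets (Il1r1, Il13ra2 and Ebi3) were past it as higher and 0 as lower in VEC-positive against VEC-null cells at confluence, beside 4.31% and 3.62% of all 14246 probe sets tested. Among sparse cells 1 (Ebi3) was past it as higher and 0 as lower, beside 5.43% and 4.27%. Confluent against sparse, 4 (the same 3 and Il6st 94345_at) were higher and 0 lower in VEC-positive cells, beside 8.16% and 7.22%. In VEC-null cells 3 (Il4ra, Il10rb and Il6st 98349_at) were higher and 0 lower, beside 9.1% and 7.41%. In the difference of the density responses 3 (Il1r1, Il13ra2 and Ebi3) were higher and 0 lower, beside 5.91% and 6.34%. The Ebi3 call in the last of these was lost when any 1 copy was left out, except the first of confluent VEC-null cells. Since the members were selected on these signals, nothing is read from these counts. Median log2 differences of the 7 probe sets in these 5 comparisons were 0.21, -0.25, 1.12, 0.84 and 0.56, beside -0.03, -0.03, 0.02, 0 and 0.01 over all probe sets tested.

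**Figure D3:**
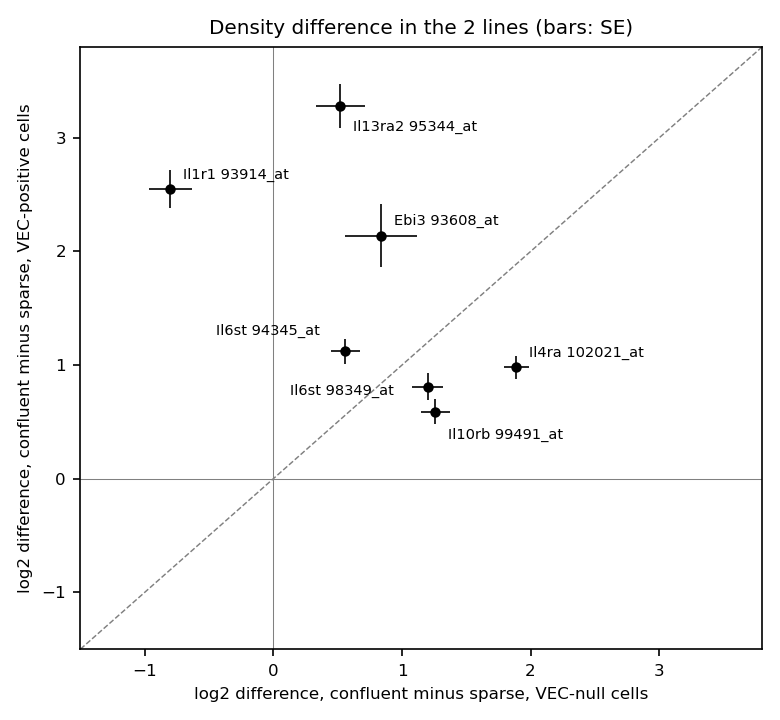
Confluent minus sparse log2 difference of signal + 50 in VEC-positive cells (vertical axis) against that in VEC-null cells (horizontal axis) for the 7 probe sets that passed the filter; bars are the SE of the fit, and the dashed line marks equal differences. Il1r1, Il13ra2, Ebi3 and Il6st 94345_at lie above the line, Il1r1 at -0.8 in VEC-null cells, and Il4ra, Il10rb and Il6st 98349_at lie below it.

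The genes with the most similar pattern were found by Pearson correlation of log2(signal + 50) over the 8 arrays of chip A, which come from 4 cRNA samples, among 2390 candidate genes (2389 for Il6st), and are given as a description. Nearest to Il1r1 were Plagl1 (r = 0.9934), Tiam1 (0.9933) and Ncaph (0.9823). Plagl1, a zinc finger gene, averaged 419.8 ± 54 in confluent and 52 ± 4.9 in sparse VEC-positive cells, against 49.4 ± 4.2 in confluent and 101 ± 2.1 in sparse VEC-null cells (SD, n = 2 copies), and so shared the turn of order between densities. Nearest to Il13ra2 were Cbx6 (0.9976), Tmem170 (0.9933) and Agfg1 (0.9913), and nearest to Ebi3 were Ssbp2 (0.9885), Helb (0.9831) and Gp9 (0.9789). Il4ra was followed most closely by Cerk and Cd47 (0.9955 each), with Capn5 at 0.9946, and Il10rb by Grina (0.9945), Furin (0.9941) and Hyal2 (0.9896). The Il6st probe sets had different neighbours, Tmem176a (0.9912), Rev3l (0.9893) and Txnip (0.9884) for 94345_at and Gna12 (0.996), Ifit2 (0.9945) and Clu (0.9941) for 98349_at.

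Ligands and partner chains of the members were mostly dim. Il1rap, the accessory chain of Il1r1, had signals of 23.7 to 105.9 and did not pass the filter, nor did the ligand genes Il1a, Il1b, Il33, Il4 and Il13, the partner chains Lifr, Osmr and Il10ra, or Il12a, which encodes the partner of EBI3 in IL-35. Il2rg, Il11ra1 and Il27 are not analysed here. Il6ra, the receptor chain that binds IL-6 before gp130, had 283.7 and 259.6 in confluent and 239 and 189.3 in sparse VEC-positive cells, against 185.7 and 239.7 in confluent and 116.9 and 128.4 in sparse VEC-null cells. It passed no threshold, with log2 differences between the lines of 0.3 ± 0.17 when confluent and 0.61 ± 0.17 when sparse. Il27ra, the partner of gp130 in the receptor for IL-27, passed none either, and its difference of density responses was 0.71 ± 0.19.

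Of 35 listed ligand genes only 2, Il6 and Clcf1, were bright enough to test, and Il6, the classical gp130 ligand, was past the threshold. It had signals of 50 and 44.5 in confluent and 21.1 and 23 in sparse VEC-positive cells, against 272.2 and 266.7 in confluent and 171.6 and 175.4 in sparse VEC-null cells. Its differences between the lines were -1.72 ± 0.17 when confluent (limma adjusted p = 6.6e-05) and -1.63 ± 0.17 when sparse (adjusted p = 6.5e-05), so it was lower in VEC-positive cells at both densities. Among 13 other interleukin receptor subunits tested, of 42 listed, 1 was higher and 0 lower in VEC-positive cells at each density, near the share of all probe sets (4.31% and 3.62% when confluent, 5.43% and 4.27% when sparse). It was Il3ra, the IL-3 receptor alpha chain, with 719.3 and 592.2 in confluent and 432.2 and 471.7 in sparse VEC-positive cells, against 237.2 and 202.6 in confluent and 117.5 and 122.5 in sparse VEC-null cells. Its differences were 1.38 ± 0.14 (adjusted p = 1e-04) and 1.56 ± 0.14 (adjusted p = 3.8e-05). Confluent against sparse, 2 of the 13 were higher and 0 lower in each line. The shares of all probe sets were 8.16% and 7.22% in VEC-positive and 9.1% and 7.41% in VEC-null cells. Csf2rb, the shared beta chain that pairs with Il3ra, rose by 3.29 ± 0.27 in VEC-positive and 4.29 ± 0.27 in VEC-null cells. Its near-identical copy Csf2rb2 rose by 2.39 ± 0.17 and 1.57 ± 0.17. Further probe sets, which did not pass the filter, gave 1.39 and 1.23 for Csf2rb and -0.14 and 0.19 for Csf2rb2. Probes of this pair of paralogs may read both, so none of these values is certain for its gene.

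Of 24 genes of JAKs, STATs and their inhibitors tested, 2 were higher and 1 lower in VEC-positive cells, against VEC-null cells, at confluence, and 2 were higher and 0 lower among sparse cells. These counts lie near the share of all probe sets, 4.31% and 3.62% when confluent and 5.43% and 4.27% when sparse. Stat6, the factor that IL-4 and IL-13 receptors activate, had 2532 and 2511.3 in confluent and 2974.7 and 2738 in sparse VEC-positive cells, against 552.4 and 642.4 in confluent and 521.8 and 601.7 in sparse VEC-null cells. It was higher in VEC-positive cells by 1.99 ± 0.11 (adjusted p = 2.2e-06) when confluent and by 2.25 ± 0.11 (adjusted p = 9.3e-07) when sparse, with no overlap. Stat6 lies on chromosome 10, whose 451 genes had median differences between the lines of 0.45 when confluent and 0.38 when sparse, and the part of this shift in its value was not tested. Pias3, an inhibitor of STAT3, was the other higher gene when confluent (1.08 ± 0.12, adjusted p = 0.00018), although its 2 further probe sets gave 0.46 and 0.53. Irs1, an adaptor of the IL-4 receptor, was the other one when sparse (1.38 ± 0.23, adjusted p = 0.0013).

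Socs3, which is induced by STAT3 and inhibits gp130, was lower in confluent VEC-positive cells, with signals of 177.8 and 161.4 against 417.5 and 439.5 in confluent VEC-null cells (-1.12 ± 0.16, adjusted p = 0.00054). Its other probe sets gave -2.04, past the threshold, and -0.76, not past it. Jak1 and Tyk2, kinases of these receptors, and Stat3 passed no threshold between the lines. Stat3 was higher in confluent than in sparse VEC-null cells (1.09 ± 0.12, adjusted p = 6.1e-05) and had 0.67 ± 0.12 in VEC-positive cells, a difference of responses of -0.43 ± 0.17 that was not past the threshold. With confluence 3 of the 24 genes rose and 1 fell in VEC-positive cells and 4 rose and 1 fell in VEC-null cells, beside 8.16% and 7.22% of all probe sets in VEC-positive and 9.1% and 7.41% in VEC-null cells. Jak3 rose by 2.25 ± 0.12 and 2.11 ± 0.12 in these lines and Socs2 by 1.97 ± 0.14 and 1.43 ± 0.14. In VEC-positive cells Irs1 fell (-2.14 ± 0.23) and Stat5b rose (1.45 ± 0.37, adjusted p = 0.01), though without 1 copy of either condition the Stat5b call was lost at 1.27 or 0.84. In VEC-null cells Stat2 rose (1.15 ± 0.13) and Socs6 fell (-1.35 ± 0.16). Further probe sets of these genes disagreed in VEC-null cells, at 1.09 and 0.16 for Socs2, -0.21 and 0.22 for Socs6 and -0.84 for Stat2, none past the threshold.

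**Figure D4:**
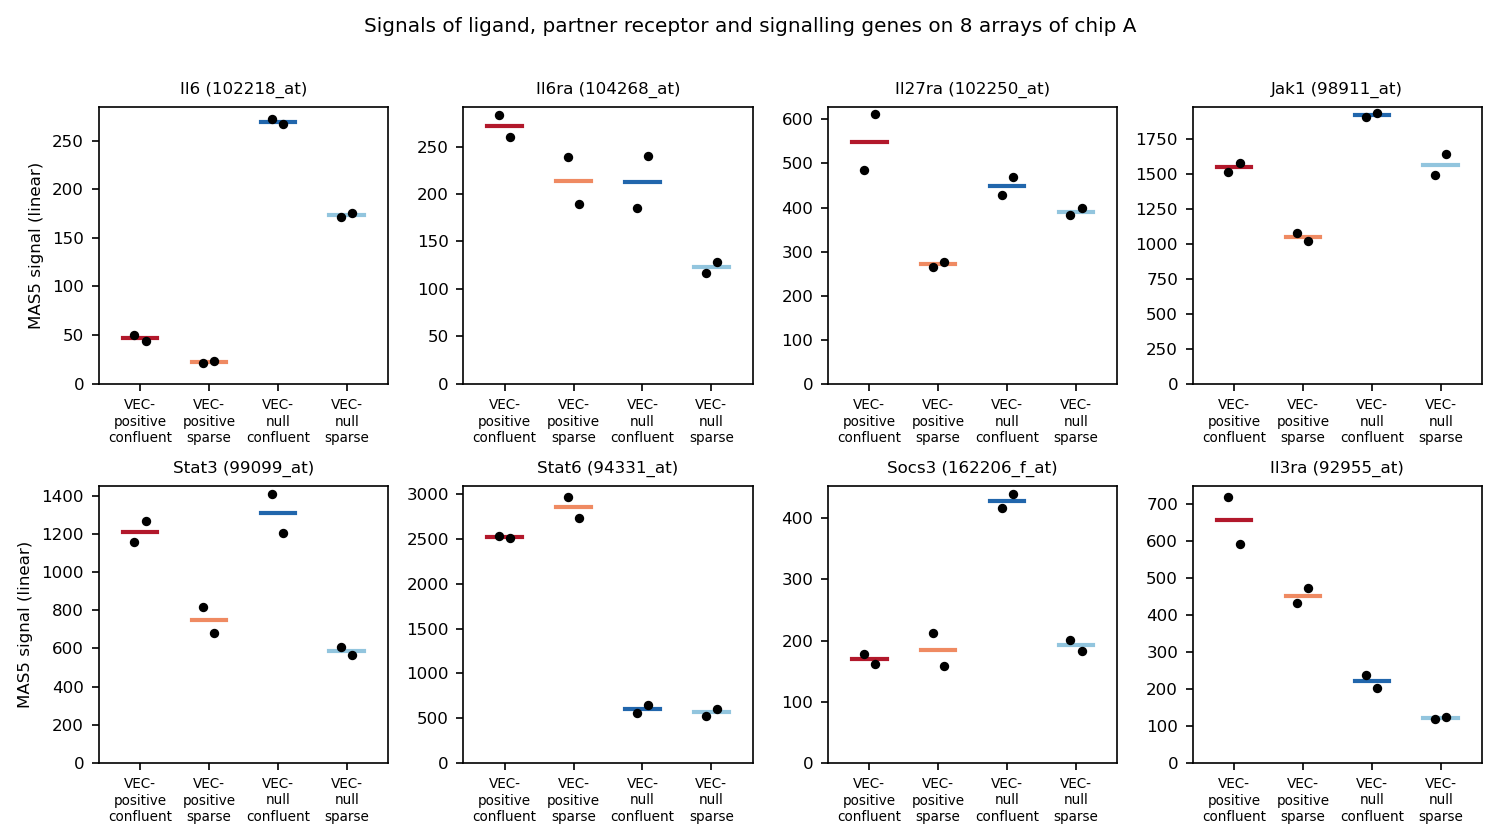
MAS5 signal (linear axis from 0, a separate scale in each panel) of a ligand (Il6), receptor chains (Il6ra, Il27ra, Il3ra) and signalling genes (Jak1, Stat3, Stat6, Socs3) on the 8 arrays of chip A, with points for copies and lines for means. Stat6 and Il3ra are higher in VEC-positive than in VEC-null cells at both densities and Il6 is lower, while Socs3 is highest in confluent VEC-null cells.

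Downstream of Il1r1, 20 genes of the signal transduction list were tested, each by 1 probe set. At an unadjusted limma p under 0.05 there were 5 and 12 of the 20 between the confluent and the sparse lines. The share of all probe sets under this limit was not computed, so nothing is read from these counts. Past the threshold, 0 were higher and 0 lower between the confluent lines, beside 4.31% and 3.62% of all probe sets. Between the sparse lines 1 was higher and 0 lower, beside 5.43% and 4.27%. This call was Tnfaip3, an NF-kB inhibitor (1.09 ± 0.26, adjusted p = 0.0078), which was lost at 0.93 without the first copy of sparse VEC-positive cells and at 0.95 without the second copy of sparse VEC-null cells. With confluence Relb, an NF-kB subunit, rose in VEC-positive (1.57 ± 0.14) and VEC-null cells (1.13 ± 0.14). Tnfaip3 fell with confluence in VEC-positive cells (-1.92 ± 0.26) and in VEC-null cells (-1.11 ± 0.26), the second call being lost at -0.73 without the second copy of confluent VEC-null cells and at -0.97 without the first copy of sparse VEC-null cells. Ecsit, an adaptor of this pathway, fell with confluence in VEC-null cells (-2.38 ± 0.48, adjusted p = 0.0026). A second probe set of Nfkbie, also in this list, was past the threshold as lower in VEC-positive cells at both densities (-1.04 and -1.06). It rose with confluence in VEC-positive (1.36) and VEC-null cells (1.34). A further Ikbkg probe set was higher in VEC-positive cells when sparse (1.4). The other further probe sets of the list that passed the filter were not past the threshold between the lines.

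Of 20 endothelial genes that IL-1 and NF-kB are known to induce, 0 were higher and 7 lower in VEC-positive cells, against VEC-null cells, at confluence, beside the 4.31% and 3.62% of all probe sets. Their median log2 difference was -0.84, beside -0.03 over all probe sets. The chemokine Ccl2 had -2.22 ± 0.07 (adjusted p = 9.8e-08), tissue factor F3 -2.02 ± 0.23 and the chemokine Ccl7 -1.44 ± 0.19, and Il6 is in this list too. Among sparse cells 3 were higher and 7 lower, beside 5.43% and 4.27% of all probe sets. The lower genes were led by the chemokines Ccl5 (-3.32 ± 0.26), Cxcl10 (-3.05 ± 0.17) and Cxcl5 (-2.33 ± 0.17) and the adhesion molecule Vcam1 (-2.26 ± 0.15). The 2 further probe sets of Vcam1 gave -0.12 and -0.45. With confluence 2 rose and 4 fell in VEC-positive cells, beside 8.16% and 7.22% of all probe sets. In VEC-null cells 3 rose and 8 fell, beside 9.1% and 7.41%. Ptgs2, the inducible cyclooxygenase, fell with differences of -3.56 ± 0.12 in VEC-positive and -3 ± 0.12 in VEC-null cells. The adhesion molecule Icam1 rose by 1.96 ± 0.14 in VEC-positive and 1.33 ± 0.14 in VEC-null cells. P-selectin (Selp) rose by 2.9 ± 0.15 in VEC-null cells and had 0.94 ± 0.15, not past the threshold, in VEC-positive cells.

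Of 15 STAT3 target genes tested, 0 were higher and 7 lower in VEC-positive cells at confluence, beside 4.31% and 3.62% of all probe sets. The median of the 15 was -0.67, beside -0.03 over all probe sets. The lower genes were led by the acute phase genes Serpina3n (-2.85 ± 0.34) and Saa3 (-2.79 ± 0.11), Bcl3 (-2.47 ± 0.27) and the transcription factor Cebpb (-1.5 ± 0.08). Saa3 had 1018.8 and 1009.1 in confluent and 307.7 and 255.8 in sparse VEC-positive cells, against 7626.8 and 6991 in confluent and 311.2 and 313.6 in sparse VEC-null cells. It was highest in confluent VEC-null cells. Among sparse cells 1 was higher (Timp1, a protease inhibitor, 1.72 ± 0.09) and 1 lower (Lcn2, an iron-siderophore binding protein, -1.13 ± 0.1). The shares of all probe sets were 5.43% and 4.27%. With confluence 4 rose and 4 fell in VEC-positive cells, beside 8.16% and 7.22% of all probe sets. In VEC-null cells 6 rose and 2 fell, beside 9.1% and 7.41%. Lbp rose by 3.33 ± 0.09 and 3.51 ± 0.09 in these lines and Lcn2 by 2.68 ± 0.1 and 2.72 ± 0.1. Myc fell in both lines, with -2.55 ± 0.11 in VEC-positive and -2.35 ± 0.11 in VEC-null cells. A second probe set of Lcn2 gave 0.44 and 0.05 with confluence and that of Bcl3 -0.46 between the confluent lines, and neither passed. Only 2 of 13 listed STAT6 target genes were bright enough to test, and neither passed in any of the 5 comparisons with limma, nor had an unadjusted p under 0.05 (0 of 2 in each).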

How the data were processed

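Transcripts of 4 conditions of mouse endothelial cells were measured on 16 Affymetrix arrays, 8 of each chip, with 2 copies per cRNA sample and chip. The deposited values are linear intensities per probe set, MAS5 signals that the authors scaled to 500, per the submitters' processing notes. No software version was given, and 0 columns of other series were present. Depth on arrays is limited by the number of hybridisations.

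Symbols came from the platform annotation: 21414 probe sets had 1, 574 several (not named) and 2845 none, and 21367 matched RefSeq genes. log2(signal + 50) was fitted per chip, with all conditions in 1 model, by limma 3.58.1 (R 4.3.3; 4 residual and 5.66 or 5.6 prior degrees of freedom, with a trend). Probe sets with a condition mean above the 50th percentile (159 on chip A, 235 on chip B) were kept, 7006 and 7240. P values were adjusted over these 14246 by the Benjamini-Hochberg method, with a threshold of 0.05 and a log2 change of 1. The fit was tested on simulated data.

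Conditions were taken from the sample labels. Members, 7 pathway lists, 5 marker lists, tests and alternatives were chosen with earlier results of these data known. Where a pathway gene had several probe sets, a chip A probe set stood for it, or else a chip B one, and the brightest of these. Named genes are all members, their partners and ligands, and per list and comparison up to 4 past the threshold with the largest change. Of 175 pathway genes listed 91 were tested. Alternatives were offsets of 16 and 200, no filter, a filter at the 75th percentile, quantile and median scaling, a prior without trend, a replicate block, averaged copies and leaving out each copy. Promoter windows are RefSeq's, of GRCm38.p6. Positions count the first of the 50 bases after the start as 1, and there is no position 0.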

Additional observations from a re-analysis of the deposited data

Results flagged for a closer look

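The density response of Il1r1 (93914_at) ran in opposite directions in the lines: both confluent copies were above both sparse copies in VEC-positive cells and below them in VEC-null cells, a difference of responses of 3.35 on the log2 scale. For the Ebi3 probe set 162357_at the copies were ordered in the same way, with a difference of 0.71, but its signals of 6.3 to 38.4 did not pass the filter, and the brighter 93608_at was higher with confluence in both lines (2.14 and 0.84), so no direction is drawn from it. No p value is given for these differences, because the members were chosen with the signals known, and conditions with 2 copies are too few to look for outlying arrays.

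Among the listed pathway genes the density response differed between the lines by limma's test of the difference (adjusted p under 0.05 and a change of 1, VEC-positive minus VEC-null). The difference of responses was positive for Stat5b (1.65), Vcam1 (1.24), Ccl5 (2.31), Cxcl5 (1.36) and Cxcl10 (2.25). For Vcam1, Cxcl5 and Cxcl10 it comes with a fall in VEC-null cells (-1.61, -1.22 and -1.82), while the values in VEC-positive cells, -0.36, 0.14 and 0.43, were not past the threshold. Ccl5 rose in VEC-positive cells (1.18) and fell in VEC-null cells (-1.12). Cxcl2, named after its values were seen, was positive as well (1.02, adjusted p = 0.025). The difference was negative for Socs3 (-1.07), Irs1 (-1.56), Selp (-1.95), F3 (-1.41), Bcl3 (-1.74), Saa3 (-2.66), Serpina3n (-3.22) and Timp1 (-1.93). Irs1 and Timp1 fell in VEC-positive cells (-2.14 and -1.77) and had -0.58 and 0.16 in VEC-null cells. Other probe sets of the same genes gave 0.1 for Stat5b, -0.45 and -0.16 for Vcam1, -0.45 for Irs1, -0.22 for Bcl3, -0.36 for Timp1, -1.46 for F3 and -3.78 and -0.91 for Socs3. The Stat5b call was lost without 6 of the 8 copies in turn, at 1.04 to 1.83, and the Socs3 call at -0.91 without the first copy of sparse VEC-positive cells.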

How the results depend on the processing

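With an offset of 200 the probe sets past the threshold numbered 590 (against 1129) between the confluent lines, 689 (1382) between the sparse lines, 1305 (2190) and 1444 (2352) for density in VEC-positive and VEC-null cells, and 1017 (1745) for the difference of responses. A filter at the 75th percentile gave 691 and 913 between the confluent and sparse lines, and the listed pathway genes between the confluent lines numbered 8 with the offset and 11 with the filter, against 17. With copies averaged, so that 4 cRNA samples are the units, 291 probe sets (against 769) and 4 pathway genes (against 17) passed between the lines over both densities, and 1400 (against 1833) between densities. Copy numbers did not pair the arrays (correlations of -0.057 to 0.08, 0 of 6 pairs over 0.1 on each chip), and with the replicate block the 5 counts were 1131, 1383, 2192, 2357 and 1742. After dividing arrays by their median, the median of all probe sets in the density comparison of VEC-null cells was -0.103, against -0.003. Of 800 recomputed member differences 45 moved by more than the spread of the copies and 0 of the called ones reversed. The Ebi3 difference between the sparse lines ranged from 0.47 to 1.6, and its call was lost with the offset of 200 and without the first copy of sparse VEC-positive or of sparse VEC-null cells. The filter at the 75th percentile left out Il1r1, and Il6st 94345_at lost its density call in VEC-positive cells after median scaling (0.87). With an offset of 16, Il1r1 passed as lower in sparse VEC-positive cells (-1.19) and, like Ebi3 as higher (1.23), in the density comparison of VEC-null cells (-1.09), while Ebi3 lost its call in the difference of responses (1.17), as it did with no filter (1.3). With the offset of 200, Il6st 98349_at lost its density call in VEC-null cells (0.95). Of 66 named calls, 42 held under every alternative run for them, which did not include the averaged copies, and 5 were lost by leaving out 1 copy.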
